A study of Mus musculus with 3 samples.

Results

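The BAFF, APRIL and lymphotoxin axis is a group of TNF family ligands and receptors that B cells and lymphoid tissue depend on. It was described in islet graft-bearing mouse spleens at 3 times after transplantation. The group was set as 10 genes, with the ligands Tnfsf13b (BAFF), Tnfsf13 (APRIL), Lta, Ltb, Tnfsf14 (LIGHT) and Tnf, and the receptors Tnfrsf13c (BAFF-R), Tnfrsf13b (TACI), Tnfrsf17 (BCMA) and Ltbr. All probes carrying one of these gene names were taken, which gave 12 probes for 9 of the 10 genes, out of 55681 probes under 34797 names on the array. Tnfsf13 had no probe under its own name.

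Spleen RNA of streptozotocin-induced diabetic C57BL/6J mice was labeled with Cy3 and hybridized to one-color arrays with probes of 60 bases. All recipients received 25 islets in the spleen and 100 islets beneath the kidney capsule, although the sample characteristics name the capsular graft for Sample 3 alone. The spleen was harvested just after transplantation on day 0 (Sample 1), on day 2 (Sample 2) or on day 139 (Sample 3), and the mice of Sample 3 had lost the kidney with the capsular graft by nephrectomy on day 100. Each time had 1 array, and the number of mice behind an array is not given in the sources used here. The methods give one general age range for the mice when analyzed, in weeks. Mice harvested at the last time must have been older than its upper end, so the age behind that array is not settled. The spleens were not sorted, so each array read spleen and graft RNA together. No spleen without an islet graft was analysed here, and day 0 is used as the earliest time and not as an untreated control.

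All 3 arrays lay on 1 slide. Between 50.4% and 54.4% of the probes were well above background on an array, and no probe was saturated. Before normalization, each of the 8 spike-in controls used was centred on its own mean log2 signal over the 3 arrays. The median of these centred values put day 139 at 66.3% of day 0. All 11 B cell, all 10 T cell and all 7 erythroid marker genes listed for spleen were detected, meaning well above background on at least 1 array. Of 6 beta cell genes 5 were detected, and Pdx1 was not.

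As background, BAFF and APRIL are trimeric ligands made mainly by myeloid and stromal cells. BAFF keeps mature B cells alive through BAFF-R, while TACI and BCMA bind both ligands, and BCMA is the receptor that long-lived plasma cells use. Lymphotoxin alpha and beta form a membrane complex on B and T cells that binds the lymphotoxin beta receptor on stromal and myeloid cells, maintains the B cell follicles of the spleen and signals through the alternative NF-kB pathway. LIGHT shares that receptor, and lymphotoxin alpha alone binds the TNF receptors.

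The probes of the 3 genes that passed the criteria given below are shown first, because their identity carries those results. The first 30 of the 60 bases are printed as the array design lists them, in lower case throughout because no part of them is singled out.
Tnfrsf17: tagataatgagcttcctaactggtgtgaag
Tnfsf14: ttagaacagattgtgccaggcctgttggat
Ltbr: ggagagtttgggaacaggagaaaaatgaca
On the mm9 build of the array annotation the Tnfrsf17 probe lies at chr16:11320045-11320104 on the plus strand. The Tnfsf14 probe lies at chr17:57329192-57329251 and the Ltbr probe at chr6:125256614-125256673, both on the minus strand. Probes of Ltb (chr17:35333097-35333156), Tnf (chr17:35336795-35336854) and Lta (chr17:35340275-35340334) lie together within 7238 bases, where these 3 genes form one cluster. Of the 60 bases, between 35.0% and 55.0% are G or C in the 12 probes.

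Signals are normalized fluorescence units of single arrays, and a level of one probe cannot be set against that of another. The error after ± is the scanner software's estimate for the spots of both arrays on the log2 scale. It covers neither labeling nor mice. A gene was called higher at a ratio of at least 1.5 with a Z-score of at least 2, and lower at a ratio of at most 0.66 with a Z-score of at most -2. For the Z-score, a log2 ratio was divided by the SD of that ratio among 1000 probes of similar mean signal. It places a probe among other probes and is no test of the conditions, for which 1 array per time allows no p-value. In unsorted tissue, fewer cells of a type and less RNA per cell cannot be told apart.

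**Figure D1:**
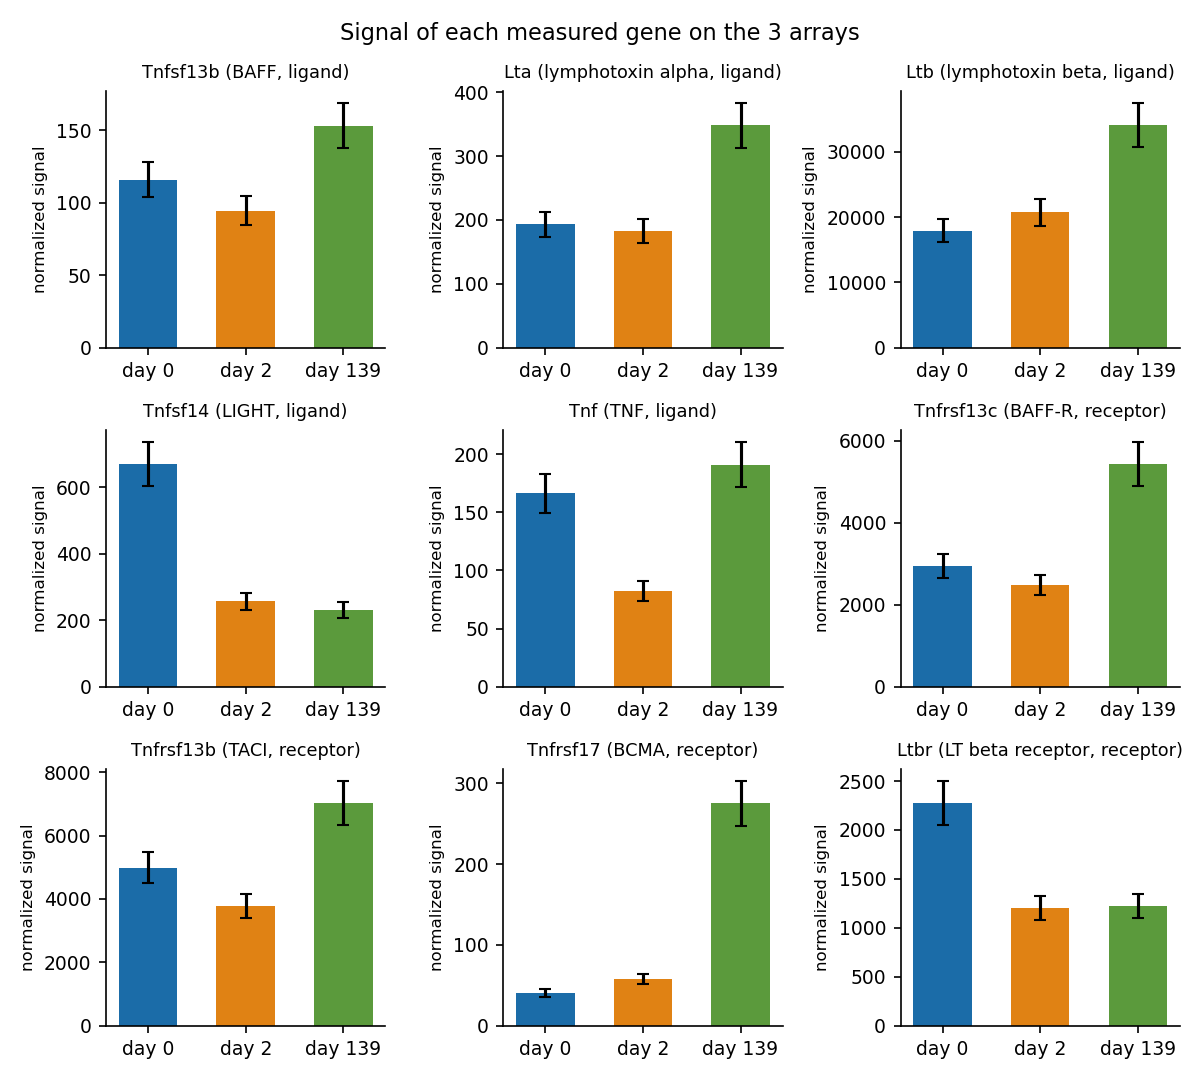
Normalized signal (linear scale from 0, own scale in each panel) of the 9 genes with a named probe on day 0, day 2 and day 139. Bars are single arrays and error bars are the scanner software's estimate for the spot. Day 139 is the highest bar for 7 genes, and day 0 is the highest for Tnfsf14 and Ltbr.

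Over the group, BAFF, its 3 receptors, both lymphotoxins and TNF were highest on day 139, while LIGHT and the lymphotoxin beta receptor were highest on day 0. Day 139 was the highest of the 3 arrays for Tnfsf13b, Tnfrsf13c, Tnfrsf13b, Tnfrsf17, Lta, Ltb and Tnf. For this and the later counts of highest days, the share over all probes is not given here. For Tnf the difference from day 0 (log2 ratio 0.20 ± 0.21) was within the scanner error. Day 2 was the lowest for 6 of the 9 genes, namely Tnfsf13b, Tnfrsf13c, Tnfrsf13b, Lta, Tnf and Ltbr. For Lta and Ltbr it was the lowest by less than the scanner error, and the second Tnfrsf13b probe placed day 0 lowest. By ratio and Z-score, 3 genes were called in at least 1 comparison. Of all detected probes, between 1.59% and 2.59% were called in each direction of a comparison, and no share was taken over the 3 comparisons together. The later counts of called genes in other lists are to be read beside these shares. Tnfrsf17 was higher on day 139 than on both earlier days, Tnfsf14 was lower on day 2 and day 139 than on day 0, and Ltbr was lower on day 2 than on day 0.

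BAFF, the ligand that sustains mature B cells, was read by 1 probe (chr8:10035561-10035620, plus strand). Tnfsf13b signals were 116 on day 0, 94.7 on day 2 and 153 on day 139. The log2 ratio was -0.29 ± 0.21 for day 2 over day 0, 0.40 ± 0.21 for day 139 over day 0 and 0.70 ± 0.21 for day 139 over day 2. Day 139 was the highest and day 2 the lowest, and the widest difference was 1.62-fold with a Z-score of 1.02. With another background correction (normexp) the last log2 ratio was 0.42. That correction adds 50 to every signal, which by construction shrinks the ratios of dim probes. BAFF passed the ratio limit in 1 comparison and the Z-score limit in 0.

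APRIL, the ligand of TACI and BCMA, could be read only through a pair of probes that the array names BC096441. Their transcript is a read-through of the neighboring Tnfsf12 and Tnfsf13 genes, listed in RefSeq as Tnfsfm13, and the array annotation assigns Tnfsf13 transcripts to both probes as well. They are printed because the reading of APRIL rests on them.
BC096441 brighter probe: acgcaaaacttagcctttctccgcatggaa
BC096441 dimmer probe: acaatggtgagaccctgtctcaaacaaact
These probes lie at chr11:69496733-69496792 and chr11:69496079-69496138 on the minus strand of mm9. The brighter probe of Tnfsf13 and Tnfsfm13 had signals of 1297 on day 0, 1220 on day 2 and 1299 on day 139. The dimmer probe had signals of 77.8, 80.9 and 90.7 on the same days. Both log2 ratios of day 139 over day 0, 0.00 ± 0.20 and 0.22 ± 0.22, were no larger than the scanner error. Neither probe passed a limit in any comparison, and Tnfsf13 and Tnfsfm13 cannot be told apart by them. Which probes to use for APRIL was decided after their names had been read in the files.

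BAFF-R, through which BAFF keeps follicular B cells alive, had 2 probes. The brighter probe of Tnfrsf13c (chr15:82052203-82052262, minus strand) had signals of 2938 on day 0, 2475 on day 2 and 5429 on day 139. The day 139 signal was 1.85-fold that of day 0 (log2 ratio 0.89 ± 0.20, Z-score 1.54) and 2.19-fold that of day 2 (log2 ratio 1.13 ± 0.20, Z-score 1.74). The difference between day 2 and day 0 was -0.25 ± 0.20. A second probe 5′ of it in the gene (chr15:82054616-82054675) had signals of 55.8, 46.0 and 109, and its log2 ratios of -0.28, 0.97 and 1.25 lay within the scanner error of those of the first. Both probes thus placed day 139 highest by more than the ratio limit, and neither reached the Z-score limit.

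TACI, which also limits B cell responses, had 3 probes within 8007 bases. The brightest probe of Tnfrsf13b (chr11:60962770-60962829, plus strand) had signals of 4990 on day 0, 3771 on day 2 and 7031 on day 139. Its log2 ratios were -0.40 ± 0.20 for day 2 over day 0, 0.49 ± 0.20 for day 139 over day 0 and 0.90 ± 0.20 for day 139 over day 2, the last being 1.86-fold. The second probe (chr11:60960405-60960464) had signals of 253, 275 and 439. Its ratio of day 2 over day 0 went the other way, 0.12 ± 0.21, so the probes disagree on the sign of that difference. The third probe (chr11:60954823-60954882) had signals of 31.2 on day 0, 14.6 on day 2 and 41.5 on day 139 and was not well above background on day 2. By that probe the day 0 signal was 2.14-fold and the day 139 signal 2.84-fold that of day 2. These are plain ratios to the measured day 2 signal and not bounds. Each had a scanner error of 0.41 on the log2 scale. All 3 probes gave day 139 as the highest array, and no TACI probe was called.

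**Figure D2:**
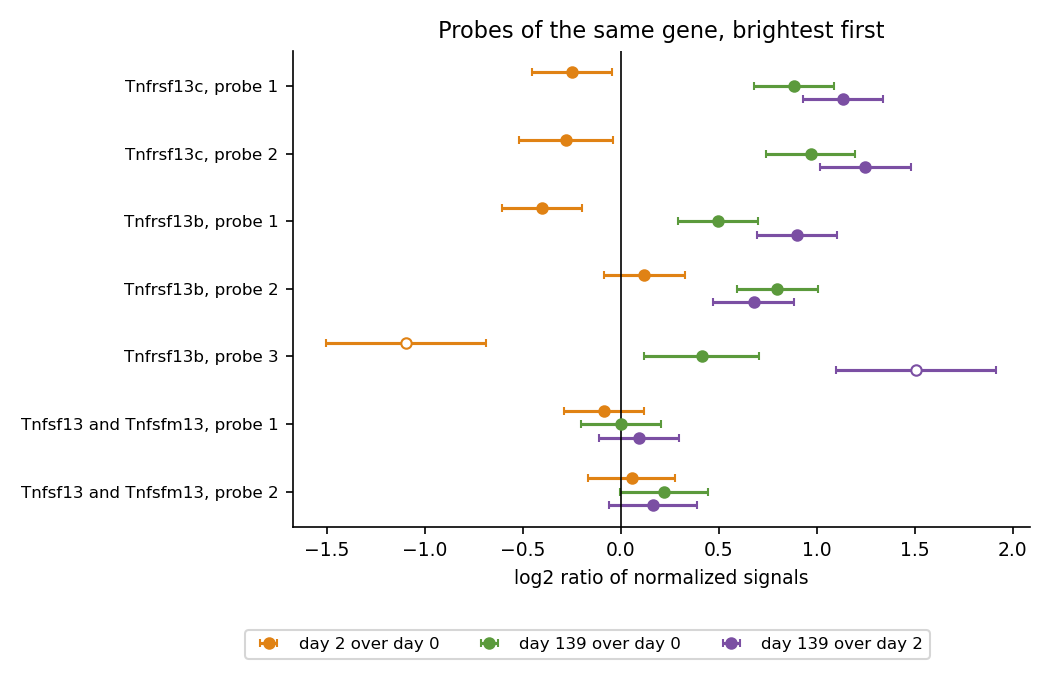
Log2 ratios of normalized signals (x axis) for each probe of Tnfrsf13c and Tnfrsf13b and for the probes shared by Tnfsf13 and Tnfsfm13, with 3 comparisons in colors and the scanner error as bars. Open points involve a probe not well above background on day 2. The comparisons of day 139 lie above 0 for the 5 receptor probes, from 0.41 to 1.51, and the shared probes stay between -0.09 and 0.22.

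BCMA, the receptor of antibody-secreting cells, showed the widest range of the 9 genes. Tnfrsf17 signals were 40.0 on day 0, 57.6 on day 2 and 275 on day 139, each well above background. Day 139 was 6.88-fold day 0 (log2 ratio 2.78 ± 0.23, Z-score 3.97) and 4.78-fold day 2 (log2 ratio 2.26 ± 0.22, Z-score 3.44), and it was called higher in both comparisons. The difference between day 2 and day 0 was 0.52 ± 0.24 and passed no limit. With the normexp background correction, the log2 ratios of day 139 were 1.77 over day 0 and 1.52 over day 2.

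Markers of the cells that carry these receptors were also highest on day 139, all 11 for B cells and 7 of 8 for plasma cells, the exception being Xbp1. Among the 7, Fkbp11 was well above background on day 139 only (29.2), so it was detected through that array alone. The summed signal of the 11 B cell genes was 60757 on day 0, 61857 on day 2 and 117154 on day 139, and that of the 8 plasma cell genes was 57901, 39633 and 106671. Such a sum is weighted to its brightest probes, and Jchain and Xbp1 made up most of each plasma cell sum. Of the B cell genes 6 were called higher for day 139 over day 0, against 2.59% of all detected probes. The median log2 ratio over all 11 was 1.10. Blk, a kinase of B cell receptor signaling, had 1.94 and Fcer2a, the low-affinity IgE receptor, 1.67, while Cr2, the complement receptor of follicular dendritic and B cells, had 0.23 and Pax5, which maintains B cell identity, 0.58. The log2 ratios of BAFF-R (0.89) and TACI (0.49) lay below that B cell median.
Of the plasma cell genes 5 were called higher for day 139 over day 0, against 2.59% of all detected probes, with a median of 1.40. Mzb1, an endoplasmic reticulum chaperone of antibody-secreting cells, had a log2 ratio of 2.04 and Derl3, a factor of protein degradation in that compartment, 1.90. Prdm1, the regulator of plasma cell differentiation, had 0.75 and Xbp1, which drives secretory expansion, -0.22. The BCMA log2 ratio of 2.78 was above that of each of the 8 plasma cell genes, but with the normexp correction its 1.77 lay below Mzb1 (2.03) and Derl3 (1.91). The 50 added by that correction shrinks the ratio of a dim probe such as Tnfrsf17 (40.0 on day 0). It hardly changes those of Mzb1 (2767 on day 0) and Derl3 (682). The change of rank is therefore not read as a result about BCMA. Whether these markers account for the receptor values was not tested.

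Lymphotoxin alpha and beta were both highest on day 139. The probe of Lta, the subunit that also forms a secreted trimer, had signals of 193 on day 0, 183 on day 2 and 348 on day 139. Its log2 ratio was 0.85 ± 0.21 for day 139 over day 0 (1.80-fold, Z-score 1.47) and 0.93 ± 0.21 for day 139 over day 2. Days 0 and 2 differed by -0.08 ± 0.21, which is within the scanner error. The array carries this probe in 10 spots, and before normalization they gave 203 ± 9.23 on day 0, 190 ± 13.7 on day 2 and 318 ± 16.0 on day 139 (SD, n = 10 spots of 1 array). The spots ranged from 296 to 341 on day 139, from 189 to 215 on day 0 and from 172 to 213 on day 2. Spots of 1 array share the RNA and the labeling and are not replicates of the day.

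The probe of Ltb, the subunit that anchors the complex in the membrane, had signals of 17889 on day 0, 20744 on day 2 and 34084 on day 139. Its log2 ratios were 0.21 ± 0.20 for day 2 over day 0, 0.93 ± 0.20 for day 139 over day 0 and 0.72 ± 0.20 for day 139 over day 2. Day 139 was 1.91-fold day 0 with a Z-score of 1.80, the closest to the limit among the uncalled genes in that comparison. T cell markers, whose cells also make lymphotoxin, had a median log2 ratio of 0.90 for day 139 over day 0. Of these 10 genes 1 was called (Cd2, an adhesion receptor, 1.35), and the smallest ratio was that of Lat (0.37). The part of T cells in the lymphotoxin values was not tested.

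LIGHT, a ligand of the lymphotoxin beta receptor made by T cells and myeloid cells, ran the opposite way. Tnfsf14 signals were 670 on day 0, 256 on day 2 and 231 on day 139. The gene was called lower on day 2 than on day 0, with a ratio of 0.383 (log2 ratio -1.39 ± 0.20, Z-score -3.41), and on day 139 than on day 0, with a ratio of 0.345 (log2 ratio -1.54 ± 0.21, Z-score -2.66). Day 139 and day 2 differed by -0.15 ± 0.21 on the log2 scale, a sign that turned to 0.28 when the arrays were scaled to the spike-in controls. With 1 SD over all probes in the Z-score, the call for day 139 over day 0 was lost (Z-score -1.84) and that for day 2 over day 0 was not (-2.07). LIGHT had its highest signal on the day 0 array.

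TNF, the inflammatory cytokine of the cluster, was lowest on day 2. The Tnf probe had signals of 166 on day 0, 82.1 on day 2 and 191 on day 139. Its log2 ratio was -1.02 ± 0.21 for day 2 over day 0 (Z-score -1.74), 0.20 ± 0.21 for day 139 over day 0 and 1.22 ± 0.21 for day 139 over day 2 (Z-score 1.86). Its difference between day 139 and day 0 was within the scanner error. Before normalization its spots gave 176 ± 11.7 on day 0 (SD, n = 8 of 10 spots after outliers were left out), 85.6 ± 4.49 on day 2 (n = 10) and 172 ± 9.01 on day 139 (n = 9). The spots ranged from 77.9 to 92.0 on day 2, from 163 to 194 on day 0 and from 161 to 184 on day 139, and those of day 0 and day 139 overlapped. These spots, too, are not replicates of the day. With the normexp correction the log2 ratio was -0.61 for day 2 over day 0 and 0.81 for day 139 over day 2. With the processed scanner signals, TNF passed the ratio limit for day 2 in both comparisons and the Z-score limit in neither.

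**Figure D3:**
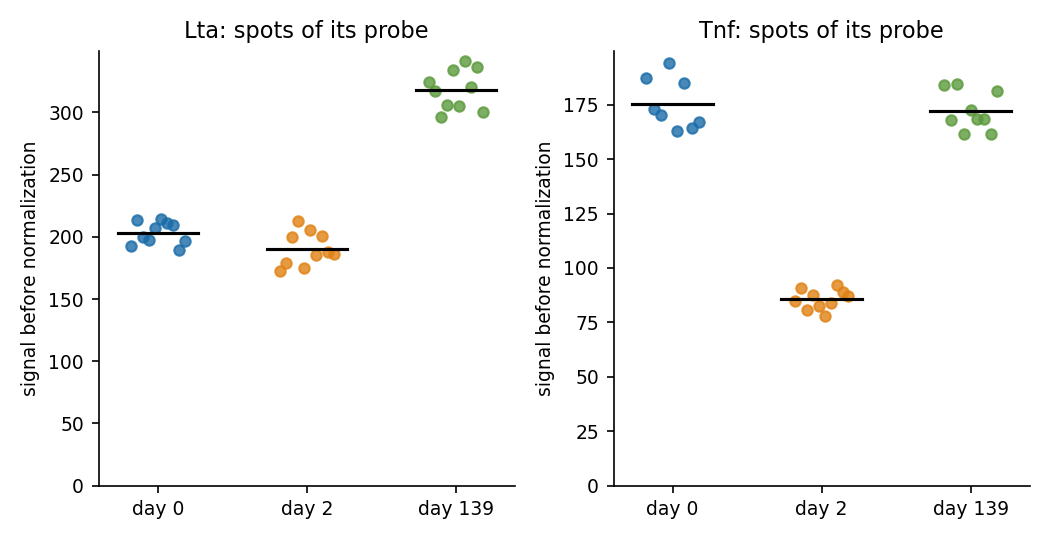
Signal before normalization (linear scale) of each kept spot of the Lta and Tnf probes on the arrays of day 0, day 2 and day 139, with black lines at the means. Lta spots span 296 to 341 on day 139, and Tnf spots span 77.9 to 92.0 on day 2.

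The lymphotoxin beta receptor, carried by stromal and myeloid cells, was highest on day 0, as LIGHT was. Ltbr signals were 2275 on day 0, 1205 on day 2 and 1220 on day 139. It was called lower on day 2 than on day 0, with a ratio of 0.530 (log2 ratio -0.92 ± 0.20, Z-score -2.35). That call was lost with a ratio limit of 0.5, and with 1 SD over all probes in the Z-score (-1.37). For day 139 over day 0 the ratio was 0.536 and passed the ratio limit, with a Z-score of -1.47. Days 139 and 2 differed by 0.02 ± 0.20, within the scanner error, and the sign of that difference turned with scaling to the 75th percentile. Scaled to the spike-in controls, the log2 ratio of day 139 over day 0 was -0.50.

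Most acute inflammatory genes (9 of 10) and 6 of 10 neutrophil markers were also highest on the day 0 array. Among the 9, Ptgs2 was well above background on day 0 only (76.5), so it was detected through that array alone. The other 4 neutrophil markers, Ly6g, Ngp, Camp and Ltf, were highest on day 139. The summed signal of the 10 neutrophil genes was 266682 on day 0, 115080 on day 2 and 121365 on day 139. Among them, 5 were called lower on day 2 and 5 on day 139 than on day 0. Of all detected probes, 2.48% and 2.07% were called lower in these comparisons. S100a8 and S100a9 made up most of each sum. Mmp8, a neutrophil collagenase, had a log2 ratio of -4.44 for day 2 over day 0, and Cxcr2, the receptor that draws neutrophils to chemokines, -2.58. Retnlg, a secreted product of mature neutrophils, had -3.64 for day 139 over day 0. Camp and Ltf, granule genes of immature neutrophils, had 0.50 and 0.35 for day 2 and 0.72 and 0.45 for day 139, each over day 0. For Ly6g, a surface marker of neutrophils, they were -0.56 and 0.04, and for Ngp, another granule gene, 0.01 and 0.38.
The 10 acute inflammatory genes summed to 16411, 4425 and 5003 on days 0, 2 and 139. Against the same 2.48% and 2.07% of probes, 9 were called lower on day 2 and 8 on day 139 than on day 0. Both counts include Ptgs2. Il6, an acute-phase cytokine, had -4.05 and -4.38, and Ccl2, a monocyte chemokine, had -0.96 and -3.69. Nfkbiz, an inducible nuclear IkB protein, had -0.53 and 0.06 and passed no limit. The part of these cells and genes in the LIGHT, TNF and Ltbr values was not tested.

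**Figure D4:**
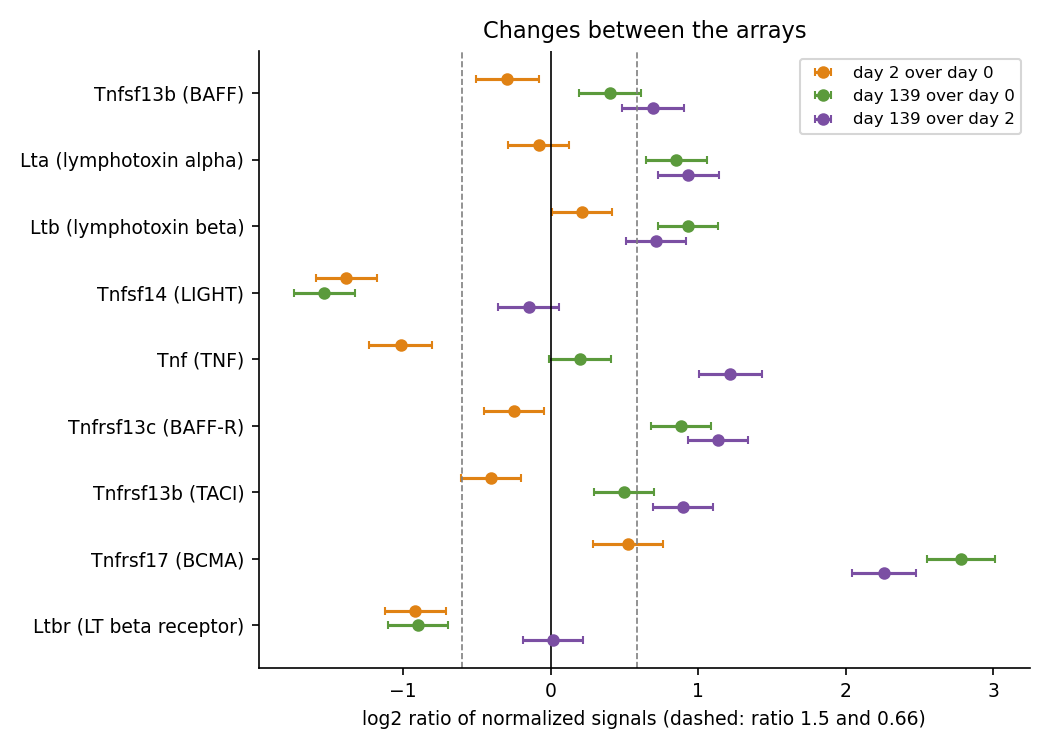
Log2 ratios of normalized signals (x axis) of the 9 genes for 3 comparisons, with the scanner error as bars and dashed lines at ratios of 1.5 and 0.66. Tnfrsf17 reaches 2.78 for day 139 over day 0, and Tnfsf14 lies at -1.39 and -1.54 for the comparisons with day 0.

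The 3 comparisons share arrays, so their values are not independent, and the counts below are read beside the share of all 32108 detected probes called by the same rule. For day 2 over day 0, 0 of 9 genes were called higher, against 1.83% of probes, and 2 of 9 lower (22.2%), against 2.48%. By the ratio limit alone 0 were higher, against 10.1% of probes, and 3 lower (33.3%), against 10.4%. The median log2 ratio of the 9 genes was -0.29, against 0.01 over all detected probes, and 2 lay above 0.

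For day 139 over day 0, 1 of 9 genes was called higher (11.1%), against 2.59% of probes, and 1 lower, against 2.07%. By the ratio alone 4 were higher (44.4%), against 12.8%, and 2 lower, against 14.7%. The 4 were Tnfrsf13c, Tnfrsf17, Lta and Ltb. The median was 0.49, against -0.02 over all probes.

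For day 139 over day 2, 1 of 9 was called higher, against 2.54% of probes, and 0 lower, against 1.59%. By the ratio alone 7 of 9 were higher (77.8%), against 12.4%, and 0 lower, against 14.4%, the exceptions being Tnfsf14 and Ltbr. The median was 0.90, against -0.04 over all probes. Several of the 9 genes are expressed by the same cells, so they are not independent readings.

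Other members of the TNF family give the surroundings of the axis. Of 11 further ligands 9 were detected, and Tnfsf4 and Cd40lg were not. Their median log2 ratio was 0.74 for day 139 over day 0, and 1 was called higher. That was Cd70, the ligand of CD27, whose probe was well above background on day 139 only, at 74.0, and at least 5.72-fold higher there than on day 0. Tnfsf15, a costimulatory ligand, had 0.93 and Tnfsf11 (RANKL), which acts on stromal and osteoclast lineages, had 0.90, while Tnfsf12 (TWEAK), the neighbor of APRIL, had 0.02 and Fasl, the death ligand of cytotoxic cells, -0.76.

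Of 15 further receptors 14 were detected, with a median of -0.21 for day 139 over day 0 that turned to 0.16 with spike-in scaling, and 2 were called lower. Tnfrsf12a, the receptor of TWEAK, had a log2 ratio of -2.62 (Z-score -4.01) and Tnfrsf1a, the main receptor of TNF and of soluble lymphotoxin alpha, had -1.23 (Z-score -2.12). Cd40, the receptor by which T cells help B cells, had 1.00 and Cd27, a marker of memory B and T cells, 0.90, and neither was called. Tnfrsf14 (HVEM), the other receptor of LIGHT, was added after its values were seen. Its signals were 133 on day 0, 144 on day 2 and 98.1 on day 139, and it passed the ratio and Z-score limits in none of the 3 comparisons.

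Downstream of these receptors, 21 of 22 genes of NF-kB signaling were detected, Rel being the exception. For day 139 over day 0 none of the 21 was called, and the median log2 ratio was 0.18. Nfkbie, an inhibitor of NF-kB, had 0.94 and Traf3, the adaptor that holds NIK in check until BAFF-R or the lymphotoxin beta receptor is engaged, 0.57, whereas Traf6 had -0.16 and Nfkb1, which encodes the p50 precursor, -0.10. Map3k14, which encodes NIK, the kinase of the alternative pathway, was the 1 gene called lower for day 2 over day 0 and the 1 called higher for day 139 over day 2. Its signals were 1358 on day 0, 733 on day 2 and 1874 on day 139. Of all detected probes, 2.48% were called lower and 2.54% higher in those comparisons. With 1 of 21 genes called, the count is not read as a result about NF-kB signaling.

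Genes listed from general knowledge as lymphotoxin-dependent stroma were less uniform, and their need for lymphotoxin in the spleen was not tested. Of 12 listed, 10 were detected, Glycam1 was not, and Ccl21a was not found under that name. Their median log2 ratio for day 139 over day 0 was 0.36, with 1 called higher and 1 lower. Pdpn, a glycoprotein of fibroblastic reticular cells, had 1.48 and Bst1, a stromal and myeloid ectoenzyme, -1.27. Ccl19, a T zone chemokine, had 0.73 and Icam1, an adhesion molecule, -0.36, and neither was called. For day 2 over day 0 Pdpn was again called higher (1.29) and Cxcl13, the B cell chemokine of follicles, lower. Cxcl13 signals were 2025 on day 0, 1118 on day 2 and 2478 on day 139, so day 2 was the lowest array for it, as for Tnfsf13b and Tnf.

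**Figure D5:**
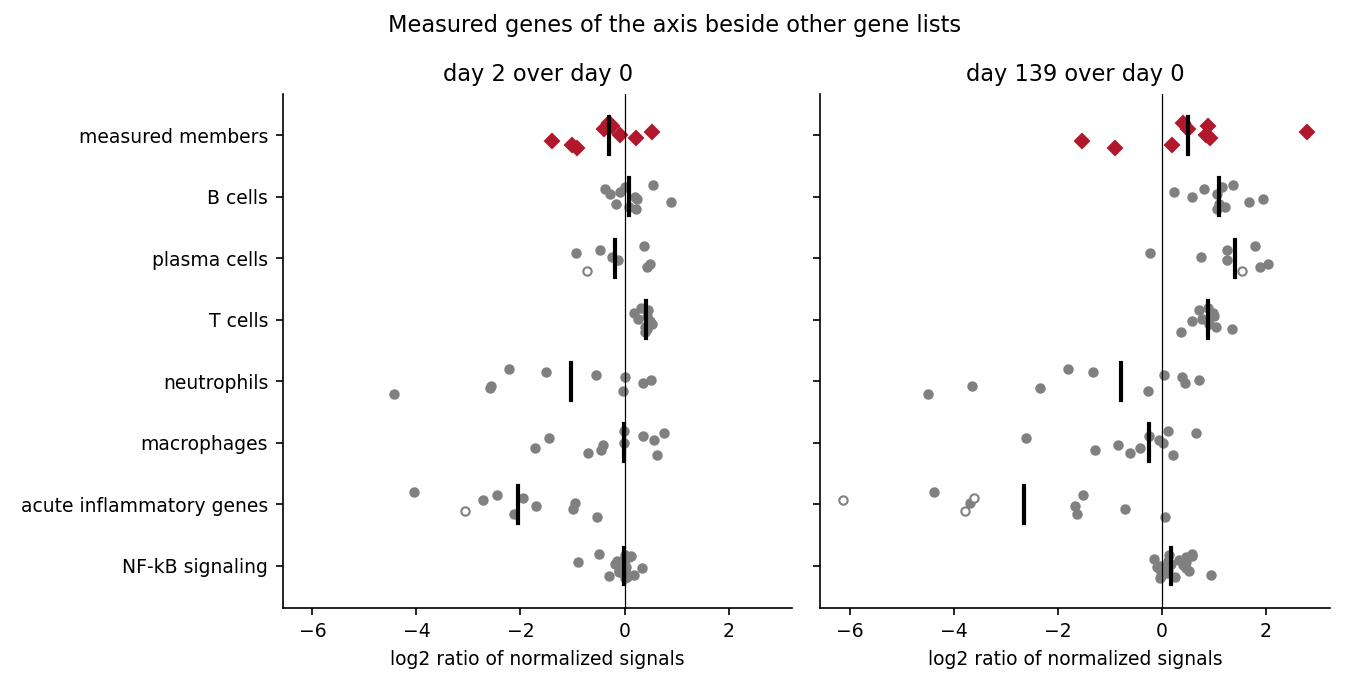
Log2 ratios of normalized signals (x axis) for day 2 over day 0 and day 139 over day 0, with diamonds for the 9 measured genes of the axis, circles for genes of other lists and black bars at list medians. Open circles are genes not well above background on one of the arrays compared. For day 139 over day 0 the medians are 0.49 for the axis, 1.10 for B cells, 1.40 for plasma cells and -0.79 for neutrophils.

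The other cell type lists are given by their values. For day 139 over day 0 the median log2 ratio was -0.25 over 11 macrophage genes (0.12 with spike-in scaling), of which 2 were called lower (Cd14, -2.61, and Marco, -1.28). Adgre1, the F4/80 antigen, had 0.65 and C1qa, a complement component, 0.22. It was 0.07 over 7 dendritic cell genes, from -0.23 for Siglech to 0.79 for Xcr1, and -0.51 (-0.09 with spike-in scaling) over 7 erythroid genes, from -1.06 for Klf1 to 0.11 for Trim10, with 0 called in either list. Macrophages and dendritic cells are among the cells that make BAFF. The Tnfsf13b log2 ratio in that comparison was 0.40, or 0.21 with the normexp correction, and the part of these cells in it was not tested. The beta cell genes of the graft had a summed signal of 61451 on day 0, 96433 on day 2 and 32046 on day 139, most of it from Ins1 and Ins2. For day 139 over day 0 the log2 ratio was -1.02 for Ins1, -0.97 for Ins2 and -0.22 for Iapp, and 0 genes of the list were called. Slc30a8, not well above background on day 0, had 0.47 ± 0.46. G6pc2, not well above background on day 139, was at least 2.19-fold lower there than on day 0.

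The ligand and the receptor with the widest range were set against the other probes by the shape of their 3 log2 signals, as the Euclidean distance of centred values over 26887 probes well above background on every array. Nearest to Tnfsf14 were AK132033 (distance 0.02), Cpped1 (0.04) and Tm4sf1 (0.05), and 69 probes lay within 0.25. For Tnfrsf17 they were Sostdc1 (0.0039), Prr15 (0.02) and Igfbp5 (0.10), with 18 probes within 0.25. Sostdc1 signals were 23.8, 34.1 and 163 on days 0, 2 and 139, and those of Prr15 were 82.8, 117 and 566. With 3 arrays, a likeness of shape describes only the order and spacing of 3 values.

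The promoters of the axis were read from RefSeq (GRCm38.p6), since NF-kB is the pathway into which these receptors feed. All 10 genes matched, with 11 start sites. The kappa-B consensus was searched on both strands in the 250 bases before each start. It occurred in 1 of the 11 windows, that of Ltb, and in 7.25% of the 32851 windows of all genes. The stretch around it is printed with the match in capitals, on the plus strand of the gene at chr17:35194410-35194439.
Ltb: aagggtgttcGGAAAGTCCCcgggcagggg
The match begins 87 bases before the start and reads as the consensus on the minus strand. This is a match of letters and not a measurement of binding, and its absence from the other windows says nothing of the factor there.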

How the data were processed

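Labeled spleen RNA of 3 samples (day 0, day 2 and day 139) was read on 1 one-color array each. The authors deposited scanner files giving the linear-scale intensity of each spot, after background subtraction and spatial detrending by Agilent Feature Extraction (version 10.7.1.1 in the file headers, 9.5.1.1 in the labels). They also deposited a value table of processed intensities, whose values for the member probes differed from those used here by at most 0.02 on the log2 scale. The kit used to purify the RNA differs between the labels and the paper, and was not settled.

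Control spots and outlier spots were left out, spots of a probe were averaged, and the 3 arrays (55679 probes) were brought to one distribution by quantile normalization. Signals under 1 were set to 1 before log2. A gene was read by its brightest probe among those detected, that is well above background on at least 1 array (32108 probes). The call limits follow the study's criteria. The study gives no formula for its Z-score, which was defined here over 1000 neighboring probes. Where a probe was well above background on only one array of a comparison, a bound or a plain ratio is given. Its brighter signal was divided by its dimmer one, or by the lowest signal well above background on the dimmer array where that was higher. Only the latter division gives a bound. Replicate spots had a median coefficient of variation of 4.28% to 5.88%. The number of arrays limits the precision.

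The 10 members and the 13 gene lists (other TNF ligands and receptors, NF-kB signaling, lymphotoxin-dependent stroma, acute inflammatory genes, and markers of B, plasma, T, neutrophil, macrophage, dendritic, erythroid and beta cells) were chosen with earlier results of these data known. The lists were written from general knowledge. Every member is named. Genes of the lists were drawn mainly from the 2 largest and 2 smallest log2 ratios of day 139 over day 0 among genes well above background on both arrays. The same was done for day 2 over day 0 in the inflammatory and neutrophil lists. Not all of these are printed for the acute inflammatory genes and the T cell, neutrophil, dendritic and erythroid lists. Where only a few genes of a list were called they are named too, after their values were seen.

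The closing section gives 13 other settings of the processing and 1 added after the data were seen. The scripts were tested on simulated data. Tools were Python 3.11.15 with numpy 2.4.6, pandas 2.3.3 and matplotlib 3.10.9, and R 4.3.3 with limma 3.58.1 for normexp (offset 50).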

Additional observations from a re-analysis of the deposited data

How the results depend on the processing

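No paired analysis was possible because each day had 1 array, and for the same reason no array could be left out. Under 9 other settings of normalization, background, filter, floor, spots or probe, 111 of 243 recomputed log2 ratios of the 9 genes were identical to the first value, among them all under the floor and both detection filters, because every probe used was well above background on all arrays. Of the other 132, 106 moved by less than the scanner error and 26 moved further, 18 with scaling to the spike-in controls and 8 with the normexp correction. Spike-in scaling shifted the median of all probes by 0.37 for day 139 over day 0 and 0.42 for day 139 over day 2, and the median of the 9 genes to 0.84 and 1.26. With it, 4 genes were called higher for day 139 over day 0, against 4.70% of all probes, and 6 for day 139 over day 2, against 5.07%. That scaling raises every probe alike, so these counts are not read as a result about the 9 genes. By the ratio alone, 4 were higher and 2 lower for day 139 over day 0, and 7 were higher for day 139 over day 2. With a ratio limit of 2 or 0.5, 1 gene (Tnfsf14) was lower for day 2 over day 0 and Ltbr was not. With 1 SD over all probes in the Z-score, 1 gene (Tnfsf14) was lower for day 2 over day 0 and 0 for day 139 over day 0, where Tnfsf14 was lost. The changed limits and spread set the counts by construction. The normexp offset of 50, added to every signal, shrinks the ratios of dim probes by construction. How much of each move this makes up was not tested. Reading Tnfsf13 by the shared probes, chosen after seeing the data, added no call. The list median of acute inflammatory genes for day 139 over day 0 was -2.64, or -1.87 with signals raised to the lowest one well above background, and that of plasma cell genes was 1.40 or 1.26. Probes near background, such as Tnfrsf17 on day 0, are the least precise.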
